A study of Mus musculus with 9 samples.

Results

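The genes described here are 10 that mark liver-resident Kupffer cells (KCs) or macrophages in general, and they were taken by symbol from a count table of 23413 genes: Clec4f, Timd4, Vsig4, Cd5l, Folr2, Marco, Emr1, Csf1r, Slc16a9 and Xlr. Expression of these genes was measured by RNA-seq in 9 libraries of sorted liver cells that carry the label of KCs. Male C57BL/6 mice, 5 weeks old when the diet began, received a normal chow (NC, 2 libraries) or a high-fat diet (HFD) for 8 weeks. HFD mice were injected from week 3 with vehicle (3 libraries) or with DPI at 2 mg per kg every 5 days (4 libraries). DPI is diphenyleneiodonium, which the study used as an agonist of the receptor GPR3 and which is also widely known as an inhibitor of flavoenzymes such as NADPH oxidase. The NC mice carry no treatment label, so HFD vehicle and NC differ both in diet and in the injections, and these cannot be told apart. A protocol text shared by the labels also speaks of 500 nM DPI for 24 h, but the titles and the diet and treatment labels give the groups used here. Per the methods of the study, the cells were sorted by flow cytometry as F4/80+CD11b+Gr1low. Emr1 encodes F4/80 and Itgam encodes CD11b, and the Gr-1 antibody binds the proteins of Ly6g and, less strongly, Ly6C, so these are genes of the gate, which removes Gr-1-high cells such as neutrophils. A gate keeps cells by surface protein, and a level of Emr1 is therefore read here as the level in cells already chosen for F4/80.

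KCs line the liver sinusoids, where they clear particles, microbes and aged blood cells, and they arise largely from embryonic precursors that renew in place. Their identity is set by the niche of endothelial cells, stellate cells and hepatocytes, through transcription factors such as LXRα (Nr1h3), Id1, Id3 and Spic, on top of the general macrophage factors PU.1 and MAF. Clec4f, a C-type lectin, and Timd4, a receptor for phosphatidylserine on dying cells, are the defining markers of resident mouse KCs. Vsig4 is a receptor for complement fragments, Marco is a scavenger receptor and Folr2 is a folate receptor. Cd5l encodes a secreted scavenger-receptor protein also known as AIM, so it is no surface protein in the strict sense. Emr1 and Csf1r, the receptor for CSF1 and IL-34, are shared by monocyte-derived macrophages, and Csf1r is needed for the survival of the lineage. Slc16a9 belongs to the monocarboxylate transporters, and Xlr is an X-linked lymphocyte-regulated gene of a family of near copies. Monocytes recruited to the liver carry Ly6c2 and Ccr2 and can acquire Clec4f and then Timd4 as they settle.

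Clec4f and Cd5l had the highest levels of the resident markers, and both were highest in NC library 2 and DPI library 1. Vehicle library 2, however, had 42 counts of Cd5l and 0 of Clec4f. The promoters of Clec4f and Cd5l are shown as the bases before the RefSeq start on GRCm38.p6, read in the direction of the gene. Clec4f (minus strand, chr6:83656188-83656366) and Cd5l (plus strand, chr3:87357631-87357880) are written 5′ to 3′, with capitals for a match to the PU.1 box GAGGAA, which in Cd5l lies on the opposite strand.
Clec4f: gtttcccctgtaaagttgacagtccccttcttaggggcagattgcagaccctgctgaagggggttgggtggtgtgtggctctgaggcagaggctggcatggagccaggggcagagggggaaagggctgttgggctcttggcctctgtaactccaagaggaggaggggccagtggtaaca
Cd5l: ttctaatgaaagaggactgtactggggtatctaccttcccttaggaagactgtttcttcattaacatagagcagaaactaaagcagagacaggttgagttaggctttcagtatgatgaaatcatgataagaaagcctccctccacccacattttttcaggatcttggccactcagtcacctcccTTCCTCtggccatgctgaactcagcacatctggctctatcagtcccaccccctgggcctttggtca

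The Cd5l window held 1 PU.1 box, 60 bases from the end of the window, and the Clec4f window held 0. Of all 32851 promoter windows, 23.3% held the box at the length of 250 bases and 17.1% at 179 bases. The MAF half-site TGCTGAC, the nuclear receptor half-site AGGTCA and the RBPJ site TGGGAA were searched on both strands as well, and neither window held them. At 250 bases these were found in 3.81%, 14% and 21.6% of all windows, and at 179 bases in 2.58%, 10.2% and 16.3%. A match of letters is no binding site, and an absent match says only that these letters are not in the window.

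The 9 libraries held 3534325 to 15585775 counts each, with a median of 4918629. DPI library 1 was the deepest and DPI library 2 the shallowest. Between 27.0% and 44.5% of the counts came from the ribosomal RNA gene Rn45s. Levels are given as CPM, the counts scaled to a common total, after TMM scaling, and 3 counts, taken here as the floor of detection, stood for 0.184 CPM in DPI library 1 and 1.02 CPM in DPI library 2. Floors cover counting error only.

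The libraries did not carry the RNA pattern of their label to the same degree. Clec4f had 0 counts in NC library 1 and in vehicle libraries 2 and 3, and Timd4 had 0 counts in 5 of the 9 libraries. The 6 resident markers Clec4f, Timd4, Vsig4, Cd5l, Folr2 and Marco together gave 1544 counts, of which 86.1% came from NC library 2 and DPI library 1, the latter the deepest library. By CPM summed over the libraries the share of these libraries was 73.9%. None of the 6 exceeded 3 counts in every library. Emr1 and Csf1r supplied 95.7% of the counts of all 10 genes. NC library 2 and DPI library 1 thus stand apart in these markers.

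**Figure D1:**
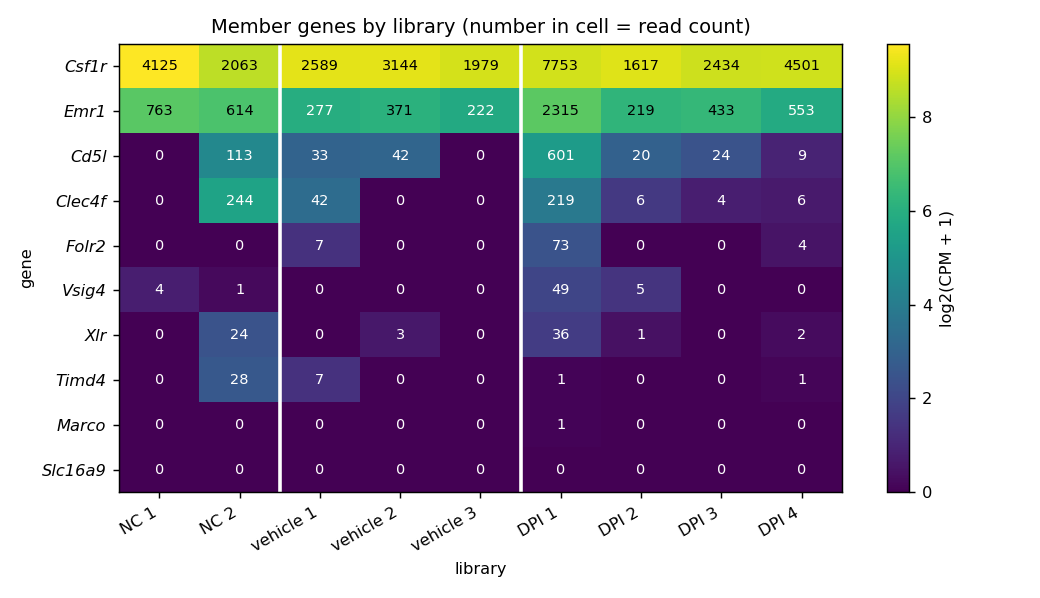
Read counts (numbers) and log2(CPM + 1) (colour) of the 10 genes, in rows, in the 9 libraries, in columns, with white lines between NC, HFD vehicle and HFD DPI. Csf1r and Emr1 are high in every library, whereas the resident markers are seen mainly in NC library 2 and DPI library 1.

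Clec4f, the lectin that defines resident KCs, reached 45.6 CPM (244 counts) in NC library 2 and 0 in NC library 1. In the vehicle group it stood at 9.32 CPM in library 1 and at 0 in libraries 2 and 3. In the DPI group it stood at 13.4, 2.04, 0.743 and 0.612 CPM in libraries 1 to 4. The lowest NC library was below all 4 DPI libraries and the highest was above them, so each pair of groups overlapped. The mean of NC was 22.8 ± 32.2 CPM (SD, n = 2), that of vehicle 3.11 ± 5.38 CPM (SD, n = 3) and that of DPI 4.20 ± 6.18 CPM (SD, n = 4). The gene lies on chr6:83644542-83656187, minus strand (GRCm38).

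Timd4 (chr11:46810800-46844332, plus strand), the receptor for dying cells, had 28 counts in NC library 2, which is 5.23 CPM, and 0 in NC library 1. It had 7 counts in vehicle library 1 and 0 in the other vehicle libraries. In the DPI group it had 1, 0, 0 and 1 counts, all at or under the floor. Clec4f and Timd4 were thus both highest in NC library 2, but in DPI library 1 Clec4f had 219 counts beside the 1 count of Timd4.

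Vsig4 (chrX:96247203-96293438, minus strand), the complement receptor, had 4 counts in NC library 1 and 1 in NC library 2. All 3 vehicle libraries had 0 counts. The DPI libraries had 49, 5, 0 and 0 counts, and the value of DPI library 1 was 3.00 CPM. Folr2 (chr7:101839988-101857194, minus strand), the folate receptor, had 0 counts in NC. Vehicle library 1 had 7 counts and the others 0, and the counts of the DPI libraries were 73, 0, 0 and 4. Its exons overlap those of Gm10602, so its reads may be shared.

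Marco (chr1:120474538-120505024, minus strand), the scavenger receptor, had 1 count in all, in DPI library 1. Slc16a9 (chr10:70245100-70285968, plus strand), the transporter, had 0 counts among the 58186984 counts of all libraries, and 3 counts over the 9 libraries together would be 0.0506 CPM. Neither gene was detectable above the floor in any group, and no fold is given for them.

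Cd5l (chr3:87357881-87371073, plus strand), the secreted scavenger-receptor protein, had the most counts of the resident markers, 842 in all. It stood at 0 and 21.1 CPM in NC libraries 1 and 2 and at 7.32, 7.62 and 0 CPM in vehicle libraries 1 to 3. The DPI libraries stood at 36.8, 6.79, 4.45 and 0.918 CPM. DPI library 1, the deepest, held 71.4% of all its counts and 43.3% of its CPM summed over the libraries. The groups overlapped, and the mean was 10.6 ± 14.9 CPM (SD, n = 2) for NC, 4.98 ± 4.32 CPM (SD, n = 3) for vehicle and 12.2 ± 16.6 CPM (SD, n = 4) for DPI.

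Xlr (chrX:53777118-53797706, minus strand) had 24 counts in NC library 2, 3 in vehicle library 2 and 36 in DPI library 1. The other libraries had 0 to 2 counts. Its family members Xlr4a, with 44 counts in NC library 2, and Xlr4b, with 65 in DPI library 1, had counts of the same order. These genes are near copies, so the split of reads between them is uncertain.

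Emr1 (the symbol in the table for Adgre1, chr17:57358691-57483527, plus strand) stood at 139 and 115 CPM in NC libraries 1 and 2. The vehicle libraries stood at 61.5, 67.3 and 55.0 CPM, all below both NC libraries. The DPI libraries stood at 142, 74.4, 80.3 and 56.4 CPM and overlapped both other groups. The mean of NC was 127 ± 17.2 CPM (SD, n = 2), that of vehicle 61.3 ± 6.14 CPM (SD, n = 3) and that of DPI 88.3 ± 37.2 CPM (SD, n = 4).

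Csf1r (chr18:61100598-61132149, plus strand), the receptor for CSF1 and IL-34, stood at 751 and 385 CPM in NC libraries 1 and 2. The vehicle libraries stood at 575, 570 and 490 CPM and the DPI libraries at 475, 549, 452 and 459 CPM, so all HFD libraries lay between the NC libraries. Means were 568 ± 259 CPM (SD, n = 2), 545 ± 47.4 CPM (SD, n = 3) and 484 ± 44.7 CPM (SD, n = 4). Its exons overlap those of Hmgxb3.

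**Figure D2:**
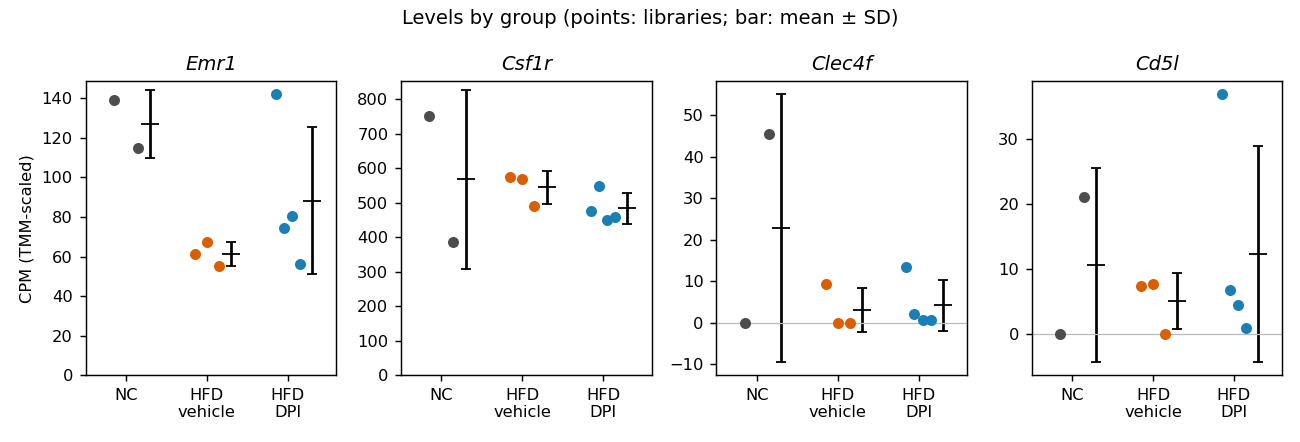
CPM (vertical axis, linear, TMM-scaled) of Emr1, Csf1r, Clec4f and Cd5l in NC, HFD vehicle and HFD DPI. Points are libraries and bars are the mean ± SD, which reaches below 0 where 1 library holds most counts. The 3 vehicle libraries lie below both NC libraries for Emr1 only among these 4 genes.

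Between genes, levels were compared as mean CPM per kb of exons over the 9 libraries. Csf1r was the highest of the 10 genes at 90.6, followed by Emr1 at 27.1, Cd5l at 4.64, Clec4f at 3.22, Folr2 at 0.463, Vsig4 at 0.421, Xlr at 0.370, Timd4 at 0.355 and Marco at 0.00354. Csf1r was above Emr1 in 9 of 9 libraries and their ranges did not overlap, and Emr1 was above Cd5l in 9 of 9. Cd5l was above Clec4f in 5 libraries and below it in 2. Folr2, Vsig4 and Xlr changed places from library to library, each neighbour being higher in 3 libraries and lower in 3. Below Emr1 the ranges of all neighbours overlapped, so that order is one of means only.

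On the same scale Csf1r ranked 366 among the 15695 genes with a count and a length, and Clec4f ranked 5173. Monocyte genes stood far above the resident markers: Ly6c2 at 340 CPM per kb, Plac8 at 1180 and Ccr2 at 47.7. The general macrophage genes Lyz2, at 17470, and Cd68, at 250, were also abundant. In NC library 2, where Clec4f was highest, Csf1r was 3.62 times as high per kb as Clec4f and Ly6c2 12.1 times. In DPI library 4 these ratios were 321 and 893. Clec4f was thus below the monocyte gene per length in every library. Fewer resident cells and less RNA per cell cannot be told apart in such bulk samples.

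**Figure D3:**
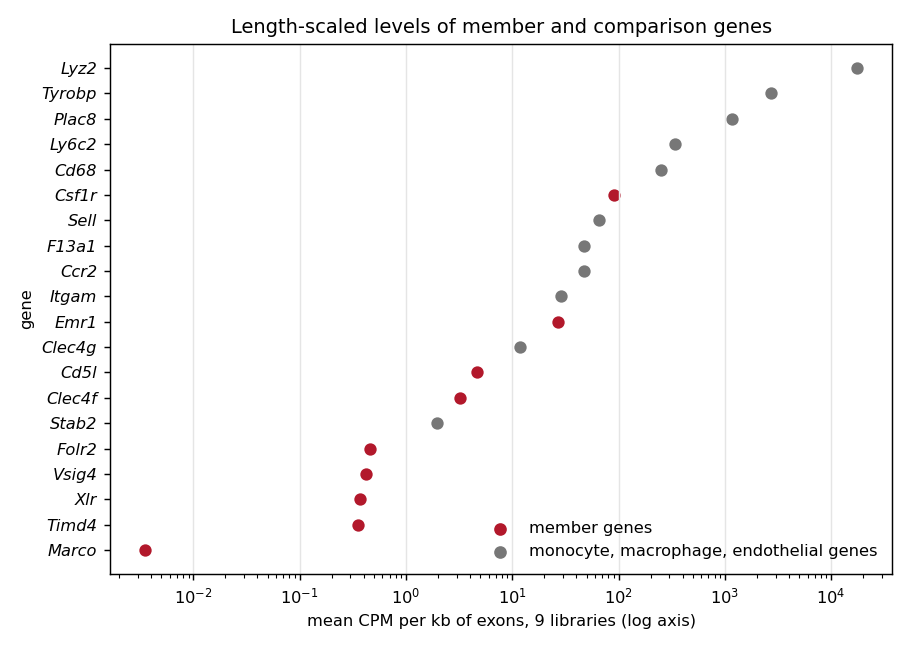
Mean CPM per kb of exons over the 9 libraries (horizontal axis, logarithmic) for 9 of the 10 genes (red), leaving out Slc16a9 at 0, and for monocyte, macrophage and endothelial genes (grey). Csf1r and Emr1 lie among the monocyte genes, whereas Timd4 and Marco lie at the bottom.

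The effect of the diet was examined by comparing HFD vehicle with NC. Of the 5 genes that passed the low-count filter, Emr1, Csf1r, Clec4f, Cd5l and Xlr, only Emr1 passed the threshold of the study, an unadjusted p under 0.05 with a change of at least 2-fold. It was lower in HFD vehicle, with a log2 fold change of -1.05 (SE 0.38), an unadjusted p of 0.0152 and an adjusted p of 0.293 by edgeR's quasi-likelihood test. Among all 11393 genes tested, 11.7% passed this threshold, 4.63% passed it as lower, and 12.5% were lower with no overlap of groups, so 1 of 5 genes is no more than a single call beside that background. Over all genes 801 were higher and 528 lower, but 539 higher and 933 lower with scaling by library size alone, where Emr1 stood at -1.34. No member passed at an adjusted p under 0.05, where 0.0614% of all genes did (7 genes, but 568 without NC library 2 and 1 to 3 without NC library 1 or any single vehicle library). Emr1 no longer passed without NC library 1, where it stood at -0.89 with an adjusted p of 0.456 by edgeR, or without vehicle library 3, at -0.93 with an adjusted p of 0.536.

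Csf1r differed by -0.06 (SE 0.30) on the log2 scale between vehicle and NC, which is less than its spread between libraries. The other fold changes were -2.87 (SE 1.96) for Clec4f, -1.07 (SE 1.65) for Cd5l and -3.41 (SE 2.33) for Xlr, with adjusted p-values from edgeR no lower than 0.562. All 5 values were negative, where 51.5% of all genes had positive ones. Without NC library 2 the signs of Clec4f and Cd5l turned, to 7.39 and 8.09, values that depend on the fit because the remaining NC library had 0 counts of both. Cd5l passed the threshold in that fit. Without NC library 1, Clec4f passed it at -3.87, and without vehicle library 1, which held all vehicle counts of the gene, it passed at -10.26, again a value against 0 counts. Xlr stood at 3.52 without NC library 2, which held all NC counts of the gene. The direction and the calls of the resident markers against NC therefore rested on single libraries.

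The effect of DPI was examined by comparing HFD DPI with HFD vehicle. None of the 5 tested genes passed the threshold, beside 2.84% of all genes (171 higher and 153 lower, or 196 and 101 with library size alone), and in none were the groups without overlap, beside 5.85% of all genes. By edgeR's test 0% of the 11393 genes had an adjusted p under 0.05, with 470 genes (4.13%) at an unadjusted p under 0.05, and DESeq2 gave 2 genes with an adjusted p under 0.05. Emr1 had a log2 fold change of 0.53 (SE 0.32, adjusted p = 0.999), and without DPI library 1 the value was 0.20. Csf1r had -0.17 (SE 0.25), Clec4f 0.48 (SE 1.67), Cd5l 1.30 (SE 1.44) and Xlr 1.81 (SE 2.05). Without DPI library 1, Clec4f stood at -1.53 and Cd5l at -0.33. Without vehicle library 1, Clec4f passed the threshold at 7.90, against vehicle libraries with 0 counts. The libraries did not resolve a difference of these genes between DPI and vehicle, and the standard errors of Clec4f, Cd5l and Xlr, at 1.44 to 2.05 on the log2 scale, exceed the change of 1 that the threshold asks for.

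HFD DPI and NC were compared as well, with the same libraries as in the comparisons above. None of the 5 genes passed the threshold, beside 9.29% of all genes (711 higher and 347 lower, or 546 and 624 with library size alone), or had an adjusted p under 0.05 by edgeR's test, beside 0.00878% (1 gene, or 572 without NC library 2, 4 without NC library 1 and 1 with any single DPI library left out). None had groups without overlap, beside 20.2% of all genes. Emr1 stood at -0.52 (SE 0.36), Csf1r at -0.23 (SE 0.28), Clec4f at -2.39 (SE 1.75), Cd5l at 0.23 (SE 1.58) and Xlr at -1.60 (SE 1.99). Clec4f, at -3.35, and Timd4, which then passed the filter, passed the threshold without NC library 1, and Cd5l passed it without NC library 2, at 9.40. Without NC library 2, Clec4f stood at 7.87 and Xlr at 5.32, both short of the threshold and again against 0 counts. Emr1, with vehicle lowest, NC highest and DPI between them by mean, was thus not resolved from either group in the DPI mice.

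**Figure D4:**
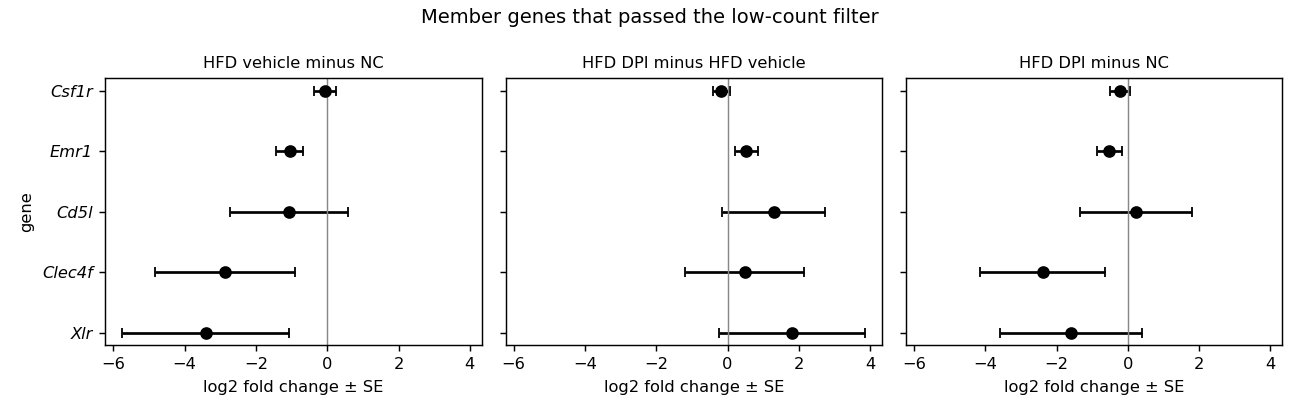
Log2 fold change (points) ± SE (bars) from the edgeR fit for the 5 genes that passed the low-count filter, in rows, in the 3 comparisons, in panels. The bars are narrow for Csf1r and Emr1, at 0.25 to 0.38, and wide for Cd5l, Clec4f and Xlr, at 1.44 to 2.33.

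The 5 genes that failed the filter were compared one by one with a two-sided exact permutation test on log2(CPM + 1). The smallest p these designs allow is 0.1 for vehicle against NC, 0.0286 for DPI against vehicle and 0.0667 for DPI against NC. Vsig4 reached the smallest value for vehicle against NC (exact permutation p = 0.1), with at most 4 counts in a library. For DPI against vehicle the exact permutation p was 0.429 for Vsig4, 0.543 for Timd4 and 0.886 for Folr2. Marco had an exact permutation p of 1.0 for DPI against vehicle and for DPI against NC. For DPI against NC the exact permutation p was 0.333 for Timd4, 0.733 for Folr2 and 0.8 for Vsig4, and for vehicle against NC it was 0.7 for Timd4 and 1.0 for Folr2. Slc16a9 could not be tested in any comparison, nor Marco between vehicle and NC, where all counts were 0.

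The 6 resident markers were also summed. NC library 2 had 72.1 CPM and NC library 1 0.729 CPM. The vehicle libraries had 19.8, 7.62 and 0 CPM, and the DPI libraries 57.9, 10.5, 5.20 and 2.04 CPM. The groups overlapped, and NC held the highest library and one of the 3 lowest.

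Markers of other liver cells moved between libraries as well. The 12 genes of the sinusoidal endothelial list, cells that line the vessels in which KCs sit, summed to 248 and 426 CPM in NC, 23.4 to 56.8 CPM in vehicle and 19.7 to 326 CPM in DPI, where library 1 was the highest. Its defining gene Clec4g had 0 counts in vehicle libraries 1 and 2 and in DPI library 3. Of the 12 genes 6 were lower and 1 was higher in vehicle than in NC by the threshold, beside 4.63% and 7.03% of all genes. In DPI against vehicle 4 were higher, beside 1.5% of all genes. Without NC library 2 the first counts were 3 lower and 1 higher, and the last was 2 without DPI library 1 or vehicle library 2. The higher gene, Pecam1 (2.66, SE 1.05), fell short without NC library 1 (2.53), vehicle library 1 (2.46) or vehicle library 2 (2.34). The libraries with the 3 highest endothelial sums, NC 1, NC 2 and DPI 1, were also the 3 with the highest Emr1. NC library 1 had 390 counts of Clec4g and 0 of Clec4f, so the endothelial and the resident markers did not go together there. The part of these cells in the differences of the 10 genes was not tested.

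The 12 hepatocyte genes summed to 389 to 506 CPM in NC, 178 to 216 CPM in vehicle and 210 to 346 CPM in DPI. Trf gave the most, at a mean of 178 CPM, and Alb had counts in every library. In vehicle against NC 4 of the 12 were lower and 0 higher, beside 4.63% and 7.03% of all genes, with a median of -1.75. These were Alb (-2.74, SE 0.59), Ttr, Serpina1a and Serpina3k, none with an adjusted p under 0.05 by edgeR. In DPI against vehicle none passed, and in DPI against NC 4 were lower, beside 3.05%. Libraries were not left out for this list. The 14 monocyte genes summed to 5434 to 6658, 5194 to 6917 and 4960 to 9544 CPM, and the 15 general macrophage genes to 22469 to 29142, 21053 to 31448 and 26026 to 50402 CPM. Of the 14 monocyte genes 1 was higher and 1 lower in vehicle than in NC, close to the 7.03% and 4.63% of all genes. These were the defining genes Ly6c2 (1.04, SE 0.35) and Ccr2 (-1.23, SE 0.45), each with an adjusted p above 0.27 by edgeR. Without NC library 1 both changes were under 2-fold (0.84 and -0.93). Ccr2 also fell short without vehicle library 3 (-1.03), and without vehicle library 2, 2 genes were higher and 1 was lower. The median of the 14 was -0.11, and it was 0.092 without NC library 1 and -0.22 without NC library 2. In DPI against vehicle none of the 14 passed, though 1 was higher without DPI library 2, 3 or 4 or vehicle library 2. In DPI against NC, Ly6c1 was higher (1.22, SE 0.55) and none was lower, beside 6.24% and 3.05% of all genes. Without DPI library 2, 3 were higher there, and without DPI library 1, 0 were higher and 2 lower. Ly6C is bound by the Gr-1 antibody, and the gate took Gr1low cells. Itgam, which encodes the gate protein CD11b, had 271 and 146 CPM in NC, 90.0 to 158 CPM in vehicle and 92.7 to 147 CPM in DPI. Their part in the results was not tested.

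**Figure D5:**
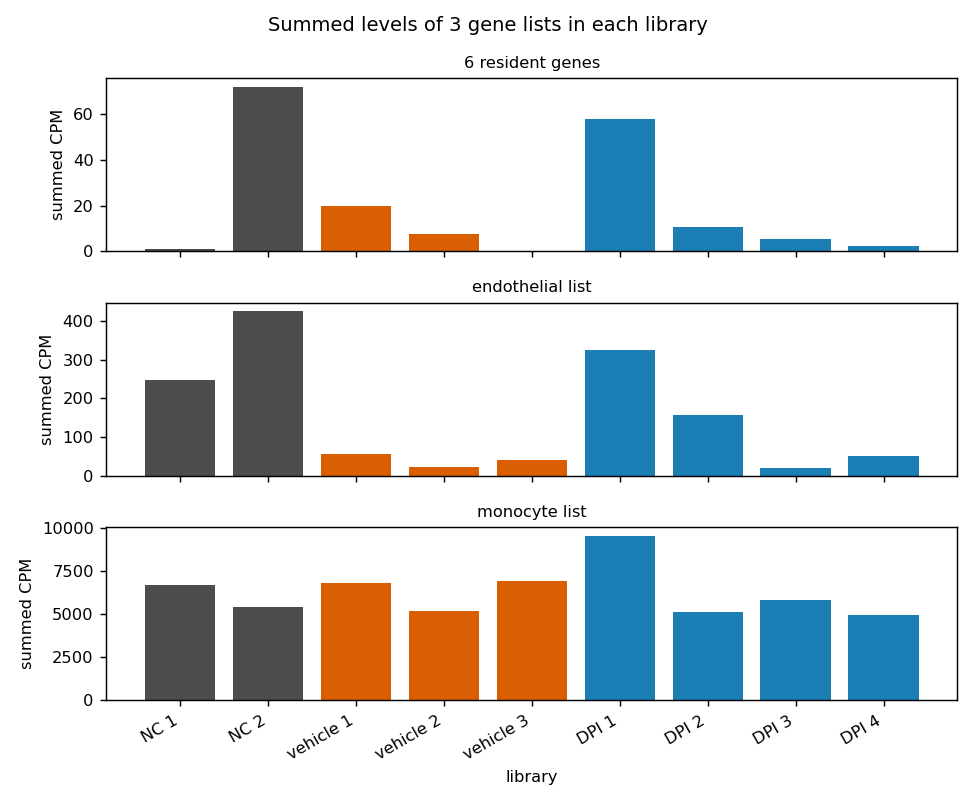
Summed CPM (vertical axes, from 0) of the 6 resident markers, the 12 endothelial genes and the 14 monocyte genes in each of the 9 libraries (NC grey, HFD vehicle orange, HFD DPI blue). The resident sum is 0 to 72.1 CPM and highest in NC library 2, whereas the monocyte sum is 4960 to 9544 CPM over all libraries.

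Genes of other blood cells were measured too. The 13 neutrophil genes, of cells that a Gr1low gate would remove, summed to 1673 to 3715 CPM in NC, 2702 to 4199 CPM in vehicle and 1072 to 5979 CPM in DPI. The 9 eosinophil genes summed to 105 to 114, 59.2 to 79.2 and 44.5 to 196 CPM, and the defining gene Prg2 had 1296, 265 and 468 counts in DPI libraries 1, 2 and 4 and at most 10 in the others. Of the 7 tested, 5 were higher in DPI than in vehicle by the threshold, beside 1.5% of all genes. In DPI against NC 4 were higher, beside 6.24%, and in vehicle against NC 1 was lower, beside 4.63%. Some of these passed the filter only through the DPI libraries. Prg2 stood at 6.31 (SE 1.45, adjusted p = 0.999 by edgeR) for DPI against vehicle, and libraries were not left out for this list. The 8 B cell genes summed to 15.8 to 76.4, 112 to 199 and 19.7 to 460 CPM, the 14 T and NK cell genes to 145 to 368, 273 to 477 and 307 to 648 CPM, the 9 dendritic cell genes to 76.3 to 126, 202 to 324 and 138 to 411 CPM, and the 6 platelet genes to 6.92 to 16.6, 1.49 to 13.8 and 8.53 to 16.4 CPM. Their part in the levels of the 10 genes was not tested.

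Genes of lipid-associated macrophages, a state known from fatty liver, were described with 9 genes, all tested. In HFD vehicle against NC 4 were higher and none lower, beside 7.03% and 4.63% of all genes, and the median of the 9 was 1.03. Without NC library 1 the median was 0.32 and 3 were higher, and without NC library 2 it was 2.58, with 5 higher and 1, Itgax, lower. Lpl, which encodes lipoprotein lipase, stood at 21.7 and 22.4 CPM in NC and at 121, 231 and 94.9 CPM in vehicle, with no overlap. Its log2 fold change was 2.76 (SE 0.42, adjusted p = 0.0452 by edgeR), and the adjusted p was 0.0165 to 0.0730 with 1 library left out, above 0.05 without NC library 1 and without vehicle libraries 1 or 2. The others were Spp1, which encodes osteopontin (3.00, SE 0.70), Cd63 (2.95, SE 0.92) and Gpnmb (2.28, SE 0.96), each with an adjusted p above 0.13 by edgeR. Gpnmb fell short of the threshold without NC library 1 (1.40) and without vehicle library 1 (2.07). Trem2, a lipid receptor that defines this state, had -0.66 (SE 0.47) and the integrin Itgax -0.81 (SE 0.55), neither past the threshold, and Cd9, Fabp5 and Lgals3 stood at 1.03, 0.56 and 0.30. In DPI against vehicle Spp1 was lower (-1.49, SE 0.51), beside 1.34% of all genes, and it fell short of the threshold without vehicle library 2 (-0.82). Lpl was lower as well without vehicle library 1 (-1.08) or vehicle library 3 (-1.19). In DPI against NC 3 were higher, Lpl, Spp1 and Cd63, beside 6.24% of all genes. Lpl alone passed without NC library 1 and without DPI library 2, and without NC library 2, 5 were higher and 1, Itgax, was lower. Emr1 was lower where these 4 were higher, and their part in its level was not tested.

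Other genes known from KCs gave no common direction. Of a list of 20, 17 were tested, and in HFD vehicle against NC 3 were higher and 3 lower by the threshold, beside 7.03% and 4.63% of all genes. The higher ones were Id3 (1.76, SE 0.46), Id1 (1.30, SE 0.33), both inhibitors of DNA binding that act in KC identity, and Hmox1 (1.22, SE 0.39), which degrades heme. The lower ones were the ficolin Fcna (-2.21, SE 0.92), the lectin Clec1b (-3.37) and Cd38, a NAD-consuming ectoenzyme (-1.49, SE 0.61). Clec1b had 163 counts in NC library 2 and 2 in NC library 1, and stood at 1.99 without NC library 2. Without that library 6 of 18 genes tested were higher and 1 was lower, and without vehicle library 3 none was lower. Fcna fell short of the threshold without NC library 1 (-1.19), Cd38 without NC library 2 (-0.87), Clec1b also without vehicle library 2 (-2.83), and Fcna (-1.93) and Cd38 (-1.36) without vehicle library 1. None had an adjusted p under 0.05 by edgeR's test, and the median of the 17 was 0.53 beside 0.03 for all genes. Without NC library 1 the median was 0.0071 and without NC library 2 it was 0.91.

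In DPI against vehicle, 2 of the 17 were lower and 0 higher, beside 1.34% and 1.5% of all genes. Hmox1 stood at 115 and 90.4 CPM in NC and at 310, 175 and 232 CPM with vehicle. With DPI it stood at 76.4, 94.4, 149 and 75.9 CPM, below every vehicle library. Its log2 fold change was -1.27 (SE 0.31, adjusted p = 0.999 by edgeR). Spic, a factor of iron-handling macrophages, was lower by -2.25 (SE 0.88), with 33 to 54 counts in the vehicle libraries and 3 to 32 in the DPI libraries. Spic fell short of the threshold without vehicle library 1, vehicle library 2 or DPI library 3, at -2.24 to -2.08. With 1 library left out a gene was higher in 3 cases, Fcna without vehicle library 2 or DPI library 4 (1.92 in the latter) and Cd38 without DPI library 1 (1.13). In DPI against NC, Id3 was higher (1.17, SE 0.44) and no gene of the list was lower, beside 6.24% and 3.05% of all genes. Id3 stood at 0.90, short of the threshold, without NC library 2, where 4 other genes (Slc40a1, Il18bp, Nr1h3 and Cd207) were higher. Clec1b was lower without NC library 1, and Hpgd without DPI library 1.

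The signalling of the CSF1 receptor was described with 22 genes, of which 21 were tested. Its ligand Csf1 had 0 and 31.0 CPM in NC, 17.4 to 46.8 CPM in vehicle and 2.57 to 77.2 CPM in DPI, and Il34, the other ligand, had 0 counts in every library. In HFD vehicle against NC 3 genes were lower and none higher, beside 4.63% and 7.03% of all genes. These were Maf, a factor of macrophage differentiation (-1.52, SE 0.66), Akt1, a kinase of survival signalling (-1.51, SE 0.65), and Mapk3, which encodes ERK1 (-1.09, SE 0.46). Akt1 stood at 136 CPM in NC library 1 and at 15.5 CPM in NC library 2, which lay below every vehicle library. Without NC library 1 none of the 3 passed the threshold, Akt1 stood at 0.78, and 2 other genes of the list, Cebpa and Inpp5d, were higher. Without NC library 2, 6 were lower and 1, Csf1, was higher against 0 counts. Without vehicle library 3 none passed, and without vehicle library 1 the 3 fell short (-1.65, -1.67 and -1.02) while 1 other gene, Plcg2, was lower. Without vehicle library 2 Akt1 fell short (-1.38) and Grb2 was lower (-1.07).

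In DPI against vehicle none of the 21 genes passed the threshold, though Inpp5d was lower without vehicle library 2 (-1.08). The smallest p belonged to Inpp5d, a phosphatase that dampens signalling (-0.87, SE 0.31, adjusted p = 0.999 by edgeR), followed by Cebpa, a myeloid transcription factor (-1.07, SE 0.67). In DPI against NC, Plcg2, a phospholipase (-1.13, SE 0.37), and Maf (-1.40, SE 0.61) were lower, beside 3.05% of all genes, and neither passed without NC library 1 (-0.58 and -0.83) or without DPI library 4 (-0.96 and -1.34). Maf also fell short without DPI library 2 (-1.47), where Cebpa was lower, and without DPI library 3 (-1.21). Without NC library 2, 5 genes were lower and 1, Csf1, was higher against 0 counts. The medians of the list were -0.08, -0.02 and -0.22 in the 3 comparisons, beside 0.03, 0.04 and 0.04 for all genes.

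The genes with a pattern most like the mean log2 CPM of the 6 resident markers were Gtf3a, a transcription factor for 5S RNA genes (Pearson r = 0.955), 9430091E24Rik (0.924), the receptor kinase Erbb2 (0.922), the adhesion molecule Jam2 (0.920) and Bet1 (0.914), over 9 libraries. Without DPI library 1 and NC library 2, r was 0.910, 0.848, 0.794, 0.875 and 0.812 over 7 libraries. These are the highest of 11393 genes and share depth and sorting with the markers, so they serve as a description. Jam2 stood at 11.2 CPM in NC library 2 and 6.62 CPM in DPI library 1, and at 0 in NC library 1, in vehicle library 3 and in DPI library 3.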

How the data were processed

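The count table was deposited by the authors as whole-number counts per gene, with no normalization. Per the labels, TopHat2 and edgeR were used on build mm10, whereas the methods of the study name bowtie2 2.2.3 and RSEM 1.2.15. RNA was polyA-selected, and strand use in counting is not given in the sources used here. The 9 libraries were grouped by title, diet and treatment labels (NC 2, HFD vehicle 3, HFD DPI 4), each from a separately numbered mouse. All 23413 genes entered edgeR 4.0.16 (R 4.3.3), with filterByExpr (11393 genes kept), TMM scaling and a quasi-likelihood fit of the 3 groups, with p adjusted by Benjamini-Hochberg. The threshold of the study was used, an unadjusted p under 0.05 with the log2 fold change at or beyond 1 in either direction. Genes dropped by the filter were tested by exact permutation with pseudocount 1. The fit was tested on simulated data, which had a smaller spread between libraries than these data and larger changes than the threshold asks for. Exon lengths and positions came from GENCODE M21 (GRCm38), and 8 of the 10 genes matched a RefSeq promoter entry. Members and gene lists were chosen with earlier results of these data known. All 10 genes are named, with genes past the threshold from the lists of other KC genes and CSF1R signalling (at most 4 by p, otherwise the 2 smallest p), and the 5 most similar genes. Fcna, Clec1b, Csf1, Il34, Hmgxb3, Gm10602, Ly6c2, Ly6c1, Ccr2, Plac8, Lyz2, Cd68, Clec4g, Prg2, Alb, Trf, Ttr, Serpina1a, Serpina3k, Lpl, Spp1, Cd63, Gpnmb, Trem2, Itgax, Cd9, Fabp5, Lgals3, Slc40a1, Il18bp, Nr1h3, Cd207, Hpgd, Grb2 and Pecam1 were named outside that rule or as markers. Alternatives were RLE or library-size scaling, other filters, DESeq2 1.42.0, the likelihood ratio test, pairs of groups alone, a replicate block, no Rn45s and each library left out. Leaving out NC library 2 and DPI library 1 together, and leaving out libraries for the gene lists, were chosen after seeing the data.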

Additional observations from a re-analysis of the deposited data

Results flagged for a closer look

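In the DPI group, the only group of 4 libraries, 9 of the 10 genes had a count and were examined for a library far from the others. In 5 of them DPI library 1 stood apart, with a gap to the next library, divided by the range of the group, above Dixon's 95% critical value. Chance flags about 1 in 20 such groups where values are normally distributed, which skewed counts near 0 are not, and these genes share 1 library. The share of all genes flagged by this rule was not determined, so the flags cannot be called particular to these genes. Clec4f had a ratio of 0.889, with 13.4 CPM in DPI library 1 and 2.04 CPM in the next. Cd5l had a ratio of 0.836, with 36.8 against 6.79 CPM. Folr2 had a ratio of 0.909, with 4.47 against 0.408 CPM. Xlr had a ratio of 0.846, with 2.21 against 0.340 CPM. Marco had a ratio of 1.0, which is fixed where 1 library holds the only count, so it says nothing about DPI library 1. DPI library 1 was also the deepest library, with 15585775 counts, and had the highest monocyte and general macrophage sums. The part of these in the values was not tested.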

How the results depend on the processing

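Emr1 was lower in HFD vehicle than in NC under every alternative that was run, from -1.34 with library size alone to -0.89 without NC library 1, and missed the threshold with the replicate block, without NC library 1 and without vehicle library 3. The number of the 10 genes past the threshold, 1, 0 and 0 for vehicle against NC, DPI against vehicle and DPI against NC, became 1 for DPI against vehicle (Vsig4) and 1 for DPI against NC (Timd4) with no filter on low counts, and ranged over 0 to 2, 0 to 1 and 0 to 2 with 1 library left out. Of all genes, 1329, 324 and 1058 passed the threshold in the 3 comparisons. With no filter 602 passed for DPI against vehicle. With at least 10 counts in every library, which kept Emr1 and Csf1r alone of the 10 genes, 726, 202 and 527 passed, on fewer genes tested. With 1 library left out the counts ranged over 1027 to 2634, 187 to 521 and 830 to 2626, with 2634 and 2626 reached without NC library 2, and 187 and 521 without vehicle libraries 1 and 2. Without NC library 2 and DPI library 1 together, 2 of the 10 genes (Emr1, Cd5l) passed for vehicle against NC and 1 (Cd5l) for DPI against NC, with 2632 and 2549 of all genes. There Clec4f turned to 7.07, -1.48 and 5.60 in the 3 comparisons and Cd5l to 7.77 and -0.33 in the first 2, and folds against the lone NC library with 0 counts depend on the prior count. With 1 library left out Clec4f ranged over -10.26 to 7.39, -1.53 to 7.90 and -4.40 to 7.87, Cd5l over -2.05 to 8.09, -0.33 to 1.74 and -1.40 to 9.40, Csf1r over -0.43 to 0.51, -0.25 to -0.14 and -0.61 to 0.34, and Xlr over -6.93 to 3.52, 1.28 to 5.32 and -2.59 to 5.32. The correlations of same-numbered libraries were -0.022 to 0.084 and those of the other pairs -0.084 to 0.061. The deviations of the 2 NC libraries mirror each other, so these values cannot settle whether the replicate numbers pair the libraries. With the replicate block 0 of the 10 genes passed for vehicle against NC, where Emr1 stood at -0.93 and Csf1r at 0.046, and Xlr at 1.31 for DPI against NC. Scaling by library size alone moved the median of all genes from 0.03 to -0.26 for vehicle against NC and from 0.04 to -0.17 for DPI against NC. The causes were not tested. The floor of 0.184 to 1.02 CPM lay above or near the levels of Timd4, Vsig4, Folr2, Marco and Xlr in most libraries, but not near the highest ones of Clec4f and Cd5l.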
